A study of Mus musculus with 24 samples.

Results

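Mitochondrial ribosomal protein genes were followed across mouse hearts that carried 1 of 2 PI3K transgenes or none and had undergone myocardial infarction (MI) or a sham operation. All genes with a symbol starting Mrpl or Mrps followed by a digit were taken, each through its brightest probe set over the 24 arrays. This gave 76 genes of the 14763 tested. By general knowledge of the ribosome, 49 encode proteins of the large subunit, 26 proteins of the small subunit, and 1, Mrps36, is now regarded as a part of the 2-oxoglutarate dehydrogenase complex rather than as a core ribosomal protein. All 76 probe sets used were above the 40th percentile of signal on every array, so none entered only through a group where it was high.

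The groups were dnPI3K MI, dnPI3K sham, caPI3K MI, caPI3K sham, Ntg MI and Ntg sham, with 4 arrays in each. Mice of the dnPI3K line carried a transgene restricted to the heart that lowers phosphoinositide 3-kinase (PI3K) activity, those of the caPI3K line a transgene that raises it, and Ntg mice no transgene; what drives them is not stated in the labels. All were of the FVB/N strain, ate standard chow, were operated at 4 months of age and gave their hearts 8 weeks later. On the caPI3K MI samples 1 tag is named for the sham group, while titles and descriptions give MI, which was followed. Whole hearts were homogenized one by one, but nothing in the labels says that each array stands for its own animal; the p-values therefore rest on array-to-array spread, which may be technical.

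Mitochondria translate a handful of proteins from their own genome, all of them subunits of the respiratory chain and ATP synthase. The ribosome that makes them has RNA from the mitochondrial genome, whereas all of its proteins are encoded in the nucleus, made in the cytosol and imported. Many of these proteins descend from bacterial ribosomal proteins and others were added in the mitochondrial lineage. Heart muscle depends on oxidative phosphorylation, and inherited defects of several of these proteins cause cardiomyopathy in humans.

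Signals are reported as log2(signal + 11.2), where 11.2 is the median signal divided by 10, so a change of -1 is close to a halving for these bright genes. The dnPI3K MI replicate 1 array had a median signal of 151 and the other arrays 103 to 119, and pairs of arrays correlated at 0.911 to 0.964. All 14 cardiomyocyte markers were measured, with a summed signal of 534858 to 784556 over the arrays. Of the caPI3K sham arrays 3 carried clear signal of the Y-linked gene Eif2s3y, at 10.55 to 10.99, against 5.72 or less on all other arrays. The sham arrays numbered 415 to 418, 2 of Ntg and 2 of dnPI3K, had a 99th percentile of signal of 18709 to 20892, against 17274 to 18514 on the other sham arrays. These numbers end the sample titles, and the labels do not say what they stand for or whether they mark a batch. All caPI3K sham arrays are numbered 1410 to 1417, above every number in the other groups, of which the highest is 1191. A batch marked by those numbers could not be told apart from the caPI3K sham group.

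In hearts with the dnPI3K transgene, mitochondrial ribosomal protein genes were lower after MI. The median change of the 76 genes was -0.25 (a ratio of 0.842), and 72 of 76 were below 0, whereas the median over all tested genes was 0.01. With limma and Benjamini-Hochberg adjustment over all tested genes at an adjusted p of 0.05, 35 of the 76 fell and 0 rose, where 5.19% of all tested genes were called lower and 4.23% higher. With the mean of each gene's probe sets in place of the brightest, 22 fell. Counted without a model, in 43 of the 76 every dnPI3K MI array was below every dnPI3K sham array, which held for 7.1% of all tested genes. An unadjusted p below 0.05 was reached by 51, all lower, against 21.9% of all tested genes in either direction. Changes ran from -0.62 for Mrpl47 to 0.15 for Mrpl20. In bulk hearts, fewer cells of a type and less RNA per cell cannot be told apart.

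The fall was spread over both subunits. In the large subunit 23 of 49 genes fell, with a median change of -0.25, and in the small subunit 11 of 26 fell, with a median of -0.21. Of the 45 genes with a bacterial counterpart 23 fell, with a median of -0.26, and of the 30 found in mitochondria alone 11 fell, at a median of -0.22. Whether these classes differed from each other was not tested.

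The same was visible array by array. With every gene set relative to its own mean over the 24 arrays, the median of the 76 genes was -0.24 to -0.14 on the 4 dnPI3K MI arrays, against -0.06 to 0.09 on the dnPI3K sham arrays. No other group reached this level: the medians were -0.02 to 0.03 in caPI3K MI hearts, 0.07 to 0.11 in caPI3K sham hearts, -0.01 to 0.04 in Ntg MI hearts and 0.03 to 0.11 in Ntg sham hearts. The group means were -0.20 ± 0.04 in dnPI3K MI and 0.04 ± 0.07 in dnPI3K sham hearts (SD, n = 4 each). The lowest dnPI3K sham array, replicate 2, was still above all dnPI3K MI arrays.

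**Figure D1:**
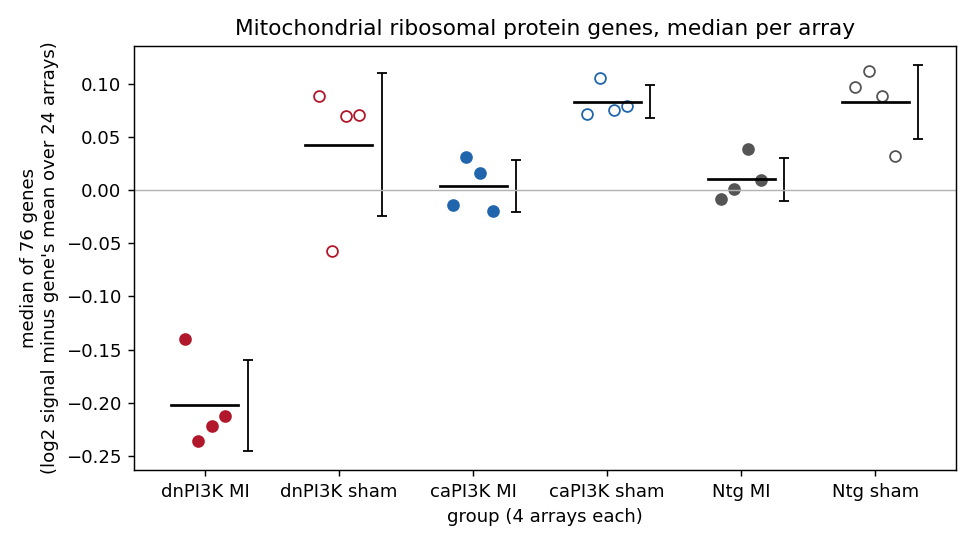
Median of the 76 mitochondrial ribosomal protein genes on each array (y axis, log2 signal minus each gene's mean over 24 arrays) for the 6 groups of 4 arrays (x axis). Points are arrays (filled for MI, open for sham), bars the group mean and whiskers 1 SD; the 4 dnPI3K MI arrays sit at -0.24 to -0.14, below all the others.

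Among proteins of the large subunit, Mrpl47, at the exit of the peptide tunnel, had 11.40, 11.20, 11.37 and 11.53 in dnPI3K MI hearts, against 11.91, 12.08, 11.92 and 12.08 in dnPI3K sham hearts. The groups were wide apart, with a log2 change of -0.62 (SE 0.09, adjusted p = 0.000155). Mrpl39, which has no bacterial counterpart, had 13.94, 13.81, 13.95 and 13.86 in dnPI3K MI against 14.56, 14.35, 14.36 and 14.44 in dnPI3K sham hearts. Every MI array was lower, by -0.54 on average (SE 0.09, adjusted p = 0.00037). Mrpl9, the counterpart of bacterial L9, had 10.62, 10.82, 10.74 and 10.89 in dnPI3K MI against 11.04, 11.36, 11.35 and 11.34 in dnPI3K sham hearts. Here 1 sham array lay closer to the MI arrays without reaching them, and the change was -0.50 (SE 0.10, adjusted p = 0.00165). Mrpl48, another protein without a bacterial counterpart, had 12.07, 11.70, 11.96 and 11.78 in dnPI3K MI against 12.48, 12.27, 12.33 and 12.41 in dnPI3K sham hearts, a change of -0.50 (SE 0.08, adjusted p = 0.000319).

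Mrpl22, whose bacterial counterpart lines the tunnel through which the new peptide leaves, had 11.51, 11.43, 11.42 and 11.47 in dnPI3K MI hearts, against 11.94, 11.76, 11.92 and 11.89 in dnPI3K sham hearts. The 4 MI arrays were close together, and all were below the lowest sham array. The change was -0.42 (SE 0.07, adjusted p = 0.00028). Mrpl14, at the face that meets the small subunit, had 11.00, 10.69, 10.82 and 10.94 in dnPI3K MI against 11.36, 11.24, 11.48 and 11.22 in dnPI3K sham hearts, a change of -0.46 (SE 0.08, adjusted p = 0.000822). Mrpl28, the counterpart of bacterial L28, had 11.60, 11.45, 11.51 and 11.64 in dnPI3K MI against 12.03, 11.82, 12.10 and 11.90 in dnPI3K sham hearts, a change of -0.41 (SE 0.07, adjusted p = 0.000675).

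In the small subunit, Mrps35, a protein special to mitochondria, had 10.95, 10.96, 11.08 and 10.82 in dnPI3K MI hearts, against 11.47, 11.48, 11.42 and 11.93 in dnPI3K sham hearts. The groups did not overlap, though sham replicate 4 was high, and the change was -0.62 (SE 0.14, adjusted p = 0.00437). Mrps28 had 11.81, 11.34, 11.41 and 11.39 in dnPI3K MI against 11.95, 11.82, 11.96 and 12.00 in dnPI3K sham hearts. MI replicate 1 came next to the lowest sham array, and the change was -0.44 (SE 0.09, adjusted p = 0.00135). Mrps31 changed by -0.43 (SE 0.09, adjusted p = 0.00198) on its brightest probe set, but by 0.05 when all its probe sets were averaged.

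Mrps36, which tethers subunits of the 2-oxoglutarate dehydrogenase complex of the citric acid cycle, had 12.37, 12.13, 12.24 and 12.14 in dnPI3K MI hearts, against 12.78, 12.57, 12.73 and 12.72 in dnPI3K sham hearts. All 4 MI arrays were lower, with a change of -0.48 (SE 0.08, adjusted p = 0.00028), so the gene moved with the core subunits although it is not counted as one.

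**Figure D2:**
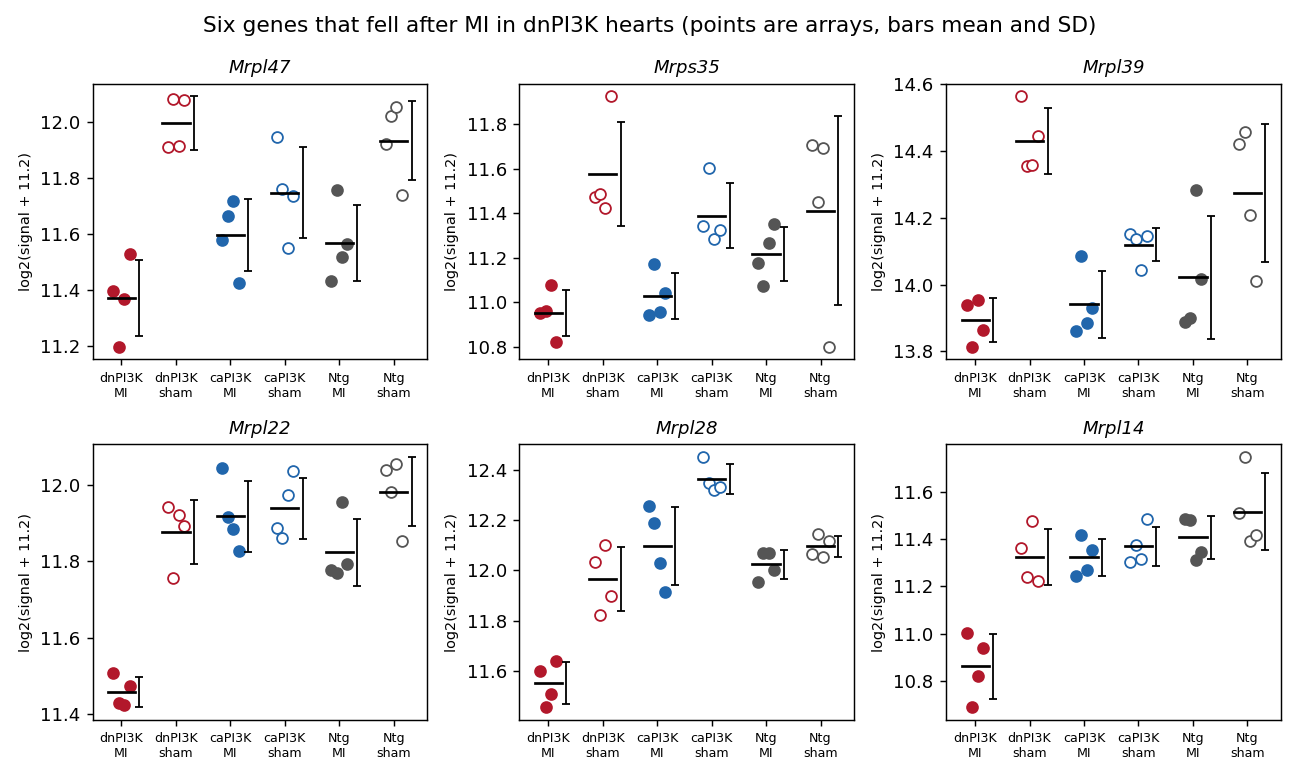
Log2 signal (y axis) of 6 genes that fell after MI in dnPI3K hearts, on every array of the 6 groups (x axis); points are arrays (filled for MI, open for sham), bars the mean and whiskers 1 SD of 4 arrays. For each gene the 4 dnPI3K MI arrays lie below the 4 dnPI3K sham arrays.

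Of the members with a known role beyond the shared core, some passed the test after MI in dnPI3K hearts and others did not. Mrpl58, a release factor built into the large subunit that frees stalled peptides, fell by 0.34 (SE 0.07, adjusted p = 0.00331). Mrpl41, also described as a pro-apoptotic protein, fell by 0.32 (SE 0.09, adjusted p = 0.0292), with an overlap of MI replicate 1 and the sham arrays. Mrps16 and Mrps7, both genes of inherited mitochondrial disease in humans, fell by 0.29 (adjusted p = 0.0049) and by 0.30 (adjusted p = 0.00938). These genes come from a list written from general knowledge, which need not hold every such gene of the family. Of the others listed, 5 did not pass the test: Mrps22 had a change of -0.24, Mrps14 of -0.21, Mrpl3 of -0.16, Mrpl44 of -0.12 and Mrps34 of 0.04. Nor did Mrpl12, which binds the mitochondrial RNA polymerase, at -0.17, nor Mrps12, whose bacterial counterpart is the target of streptomycin resistance mutations, at -0.17, nor Mrps5, at -0.20. Of 2 proteins named for the small subunit that sit in the large one, Mrps18a had a change of -0.21 and Mrps30 of -0.13, neither past the test.

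Second probe sets of the same genes gave a partial repeat, though whether they read other sequence was not checked. Of the 76 genes, 38 had another probe set above the filter, and the next brightest one was lower after MI in dnPI3K hearts for 29 of them. Among the 19 of these that were called, 16 were lower on both, with a median of -0.26 on the second. The exceptions were Mrps31, at 0.53 on the second probe set, Mrpl42, at 0.12, and Mrpl27, at 0.03. Mrpl47 was lower on both, but by -0.16 on the second, and averaging its probe sets ended its call, as it did for Mrpl48.

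Several measures moved together with the fall. The 99th percentile of signal was 16141 to 17234 on dnPI3K MI arrays, against 18260 to 20892 on dnPI3K sham arrays, and these genes are bright. After quantile normalization, which makes this percentile equal, 31 of the 76 genes still fell and the median was -0.21. The 14 cardiomyocyte markers were all below 0 after MI in dnPI3K hearts, at a median of -0.21, and 2 of 14 fell, Tnni3 and Ckm. Their summed signal was 555454 to 618011 in dnPI3K MI hearts and 610246 to 775900 in dnPI3K sham hearts. Fibroblast markers rose in 7 of 11 cases, with a summed signal of 106790 to 132457 in dnPI3K MI against 74934 to 87669 in dnPI3K sham hearts. Macrophage and myeloid markers rose in 1 of 11 cases, with sums of 29780 to 40419 in dnPI3K MI and 22950 to 37947 in dnPI3K sham hearts, and smooth muscle and pericyte markers in 1 of 7, Pdgfrb, with sums of 35812 to 42677 in dnPI3K MI and 35548 to 40865 in dnPI3K sham hearts. Endothelial markers were called in 0 of 7 cases, with sums of 11692 to 14228 in dnPI3K MI and 10481 to 11688 in dnPI3K sham hearts. Of the 4 adipocyte markers measured 3 fell, with sums of 40285 to 45133 in dnPI3K MI and 46737 to 56708 in dnPI3K sham hearts, and red cell markers were called in 0 of 3 cases. The part of these markers in the result was not tested. Within arrays numbered under 1000 (3 MI, 2 sham) 67 of 76 genes were lower after MI, at a median of -0.24, and within those numbered 1000 or more (1 MI, 2 sham) 73 were lower, at -0.27.

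The rest of the mitochondrial translation machinery was read from lists written from general knowledge. Of 4 further ribosomal proteins without an Mrp symbol 3 fell after MI in dnPI3K hearts: Ptcd3 by 0.42 (adjusted p = 0.00533), Chchd1 by 0.37 (adjusted p = 0.0101) and Dap3, a GTP-binding protein of the small subunit, by 0.24 (adjusted p = 0.0423). Of 25 assembly factors 5 fell and 0 rose, among them Fastkd2, which binds the large ribosomal RNA (-0.33, adjusted p = 0.00524), Mterf3 (-0.32, adjusted p = 0.0112) and Mettl15, a methyltransferase for the small ribosomal RNA (-0.39, adjusted p = 0.0161). Of 11 translation factors 2 fell and 0 rose: Oxa1l, which inserts new peptides into the inner membrane, by 0.42 (adjusted p = 0.00446) and the elongation factor Gfm1 by 0.31 (adjusted p = 0.0191). Of 16 mitochondrial tRNA synthetases 2 fell, Cars2 by 0.64 (adjusted p = 0.00566) and Lars2 by 0.38 (adjusted p = 0.0492). Of 6 genes of mitochondrial transcription 2 fell, Tfam, which packs the mitochondrial genome, by 0.34 (adjusted p = 0.00344) and Mterf2 by 0.42 (adjusted p = 0.0375). Of 10 regulators of mitochondrial biogenesis 1 fell, the coactivator Ppargc1a, by 0.64 (adjusted p = 0.0353).

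Other large complexes gave a scale for these numbers. After MI in dnPI3K hearts 30 of 35 nuclear genes of complex I fell, at a median of -0.35, and 32 of 46 of complexes II to V, at a median of -0.33. Of 51 cytosolic ribosomal protein genes 14 fell and 1 rose, at a median of -0.24. The share of mitochondrial ribosomal protein genes that fell, 46.1%, thus lay between that of cytosolic ribosomal proteins, 27.5%, and that of complexes II to V, 69.6%; differences between families were not tested.

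In the other genotypes the changes after infarction were smaller. In caPI3K hearts 0 of 76 genes passed the test (1.11% of all tested genes did), 14 had an unadjusted p below 0.05, all of them lower (12.2% of all tested genes, in either direction), and 62 were below 0, with a median of -0.10. The smallest p-values belonged to Mrpl28 (-0.27, adjusted p = 0.0741), Mrpl45 (-0.28, adjusted p = 0.132) and Mrps12 (-0.26, adjusted p = 0.165). Of the caPI3K sham arrays used here 3 carried clear Y-linked signal and no caPI3K MI array did. The part of that signal was not tested beyond a fit without the arrays that carry it, which leaves a lone caPI3K sham array and cannot settle it. In Ntg hearts 0 of 76 passed (0.779% of all tested genes did), 10 had an unadjusted p below 0.05, all lower (12% of all tested genes, in either direction), and 60 were below 0, with a median of -0.07. The count of 10 in Ntg hearts was near the share over all tested genes. The smallest p-values there were those of Mrpl47 (-0.37, adjusted p = 0.0586), Mrpl58 (-0.23, adjusted p = 0.158) and Mrps25 (-0.22, adjusted p = 0.216). Without Ntg sham replicate 4, 3 genes passed in Ntg hearts. Changes below 0 in all 3 genotypes were found for 49 of the 76 genes, a count given without its share over all tested genes.

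**Figure D3:**
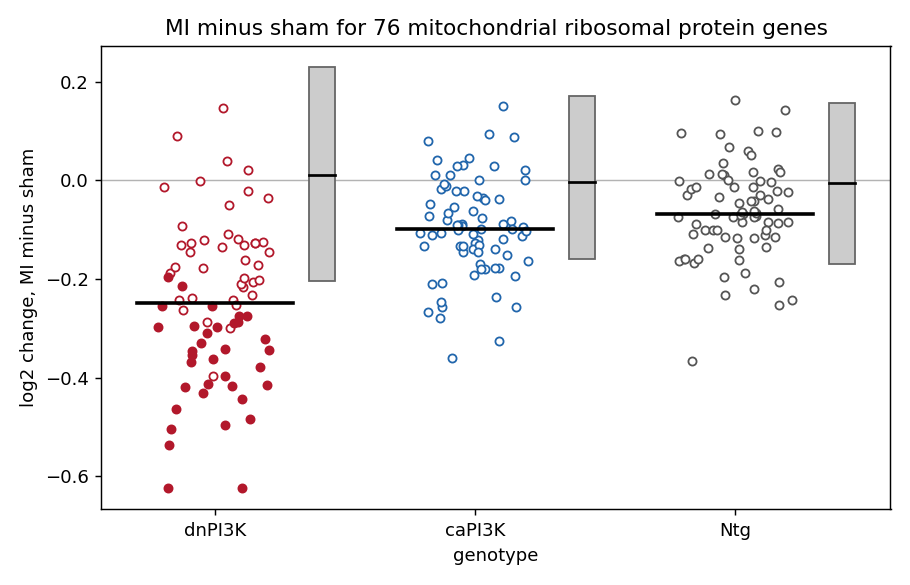
Log2 change after MI (y axis, MI minus sham) of each of the 76 genes in dnPI3K, caPI3K and Ntg hearts (x axis). Points are genes, filled where called, black lines their medians (-0.25, -0.10 and -0.07), and grey boxes the middle 50% of all tested genes with their median.

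The difference between genotypes in the response to MI was itself tested. For dnPI3K minus Ntg the median difference of the 76 genes was -0.17, and 70 of 76 were below 0, but 0 genes were called, here and among all tested genes (0%). At an unadjusted p below 0.05 there were 24 of the 76, all lower, against 7.6% of all tested genes. The smallest p-values were those of Mrpl48 (-0.46, SE 0.12, adjusted p = 0.422), Mrpl35 (-0.37, SE 0.10, adjusted p = 0.483) and Mrps31 (-0.45, SE 0.12, adjusted p = 0.497). For caPI3K minus dnPI3K the median difference was 0.15, or 0.089 with the mean of probe sets, with 0 called (0%) and 24 at an unadjusted p below 0.05, all higher, against 10.2% of all tested genes. Mrpl22 (0.40, SE 0.10, adjusted p = 0.137), Mrpl11 (0.33, SE 0.09, adjusted p = 0.179) and Mrpl47 (0.47, SE 0.13, adjusted p = 0.181) came first. For caPI3K minus Ntg the median was -0.03, or -0.047 to -0.0029 with 1 array left out (nearest 0 without Ntg sham replicate 4) and -0.064 once arrays 415 to 418 were dropped, with 0 called (0%) and 2 at an unadjusted p below 0.05, Mrpl19 and Mrps31, where 5.52% of all tested genes were; Mrps33 was next (0.18, adjusted p = 0.893). For no single gene was the response to MI thus called different between genotypes. The differences with caPI3K hearts rest on the caPI3K sham group, where most arrays carried Y-linked signal. The part of that signal was not tested beyond a fit without those arrays, which leaves a lone caPI3K sham array and cannot settle it.

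Infarcted hearts were also compared with each other. All 76 genes were lower in dnPI3K MI than in Ntg MI hearts, at a median of -0.23 (all tested genes 0.01). The test called 18 lower and 0 higher, where 1.93% of all tested genes were called lower and 0.65% higher. An unadjusted p below 0.05 was reached by 49 (15.2% of all tested genes), and in 32 every dnPI3K MI array was below every Ntg MI array (4.59% of all tested genes). Mrps6, the counterpart of bacterial S6, had 11.14, 11.18, 11.08 and 11.29 in dnPI3K MI hearts, against 11.78, 11.79, 11.75 and 11.70 in Ntg MI hearts. The groups lay far apart, with a difference of -0.58 (SE 0.07, adjusted p = 1.72e-05). Mrpl46, a mitochondrial protein of the large subunit, had 10.50, 10.35, 10.29 and 10.36 in dnPI3K MI against 10.92, 10.84, 11.23 and 10.79 in Ntg MI hearts, a difference of -0.57 (SE 0.10, adjusted p = 0.0011). Mrpl14 differed by -0.54 (SE 0.08, adjusted p = 0.00045), Mrpl28 by -0.47 (SE 0.07, adjusted p = 0.00045), Mrpl22 by -0.37 (SE 0.07, adjusted p = 0.00266) and Mrps16 by -0.33 (SE 0.06, adjusted p = 0.00447). These 6 kept their call under all other processing settings and left-out arrays tried; Mrpl50, Mrps12, Mrpl49 and Mrpl45, at -0.38 to -0.32, each lost it in some. The count of 18 fell to 11 without Ntg MI replicate 3, to 10 without dnPI3K MI replicate 3 and to 6 with only the groups compared in the fit.

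In this comparison of infarcted hearts cardiomyocyte markers were near 0, with a median of -0.03 and 0 of 14 called. Their summed signal was 555454 to 618011 in dnPI3K MI and 561249 to 619918 in Ntg MI hearts. Fibroblast markers were higher in 1 of 11 cases, Tcf21, with sums of 106790 to 132457 in dnPI3K MI and 94518 to 112317 in Ntg MI hearts, and endothelial markers in 2 of 7, Vwf and Emcn, with sums of 11692 to 14228 in dnPI3K MI and 8738 to 11775 in Ntg MI hearts. Smooth muscle and pericyte markers were called in 0 of 7 cases, yet their sums did not overlap, at 35812 to 42677 in dnPI3K MI and 33497 to 35429 in Ntg MI hearts. Macrophage and myeloid (0 of 11), adipocyte (0 of 4) and red cell markers (0 of 3) were not called. The part of these markers in the result was not tested. The 99th percentile of signal was 16141 to 17234 in dnPI3K MI and 17164 to 17884 in Ntg MI hearts, and after quantile normalization 14 of the 76 genes were lower. Of complex I 3 of 35 genes were lower, at a median of -0.14, of complexes II to V 2 of 46, at -0.10, and of cytosolic ribosomal proteins 1 of 51, at 0.00. In the translation lists Gfm1 (-0.44, adjusted p = 0.00416), Fastkd2 (-0.37, adjusted p = 0.00584), Ptcd3 (-0.43, adjusted p = 0.0096), the RNA polymerase Polrmt (-0.42, adjusted p = 0.00909) and Aars2 (-1.27, adjusted p = 0.0197) were lower. From these lists only called genes of smallest p are named, without counts.

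Set against the other transgene, 22 of the 76 genes were higher in caPI3K MI than in dnPI3K MI hearts and 0 were lower, where 2.91% of all tested genes were called higher and 1.29% lower. An unadjusted p below 0.05 was reached by 42 (16.1% of all tested genes), and in 35 every caPI3K MI array was above every dnPI3K MI array (5.68% of all tested genes). The median difference was 0.20 (all tested genes 0.00) and 69 of 76 were above 0. Mrps6 again led, with 11.92, 11.86, 11.87 and 11.74 in caPI3K MI against 11.14, 11.18, 11.08 and 11.29 in dnPI3K MI hearts, a difference of 0.67 (SE 0.07, adjusted p = 6.13e-07), or 1.59-fold. Mrpl28 had 12.26, 12.19, 12.03 and 11.91 in caPI3K MI against 11.60, 11.45, 11.51 and 11.64 in dnPI3K MI hearts, a difference of 0.55 (SE 0.07, adjusted p = 2.89e-05). Mrpl22 and Mrpl14 were both higher by 0.46, Mrpl46 by 0.44, Mrpl44 by 0.41, Mrps34 by 0.40, and Mrpl41 and Mrps12 by 0.39, with adjusted p from 9.63e-05 to 0.0159. The count was 14 without dnPI3K MI replicate 3, 13 without caPI3K MI replicate 2 and 14 with only the groups compared in the fit, and Mrpl41 and Mrpl50 (0.36, adjusted p = 0.0257) were each lost without some array, dnPI3K MI replicate 3 among them for both. Among cell type markers, cardiomyocyte genes were called in 0 of 14 cases, with sums of 534858 to 631370 in caPI3K MI and 555454 to 618011 in dnPI3K MI hearts. Smooth muscle and pericyte markers were lower in 2 of 7, Acta2 and Tagln, and their sums did not overlap, at 33038 to 34269 in caPI3K MI and 35812 to 42677 in dnPI3K MI hearts. Fibroblast markers were lower in 1 of 11, Tcf21, with sums of 96530 to 107977 in caPI3K MI and 106790 to 132457 in dnPI3K MI hearts. Macrophage and myeloid (0 of 11), endothelial (0 of 7), adipocyte (0 of 4) and red cell markers (0 of 3) were not called, and the part of the markers in the result was not tested.

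The comparisons of dnPI3K MI hearts with caPI3K MI, with Ntg MI and with dnPI3K sham hearts share the dnPI3K MI arrays. Their lists are therefore not independent. A total of 9 genes were called in all 3 comparisons, a count given without its share over all tested genes.

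Between caPI3K and Ntg hearts after MI, 0 of 76 genes were called (0% of all tested genes), 3 had an unadjusted p below 0.05 (4.62% of all tested genes), and the median was -0.02, or -0.033 to -0.0014 with 1 array left out, nearest 0 without Ntg MI replicate 3. Mrpl23 (-0.25, adjusted p = 0.728), Mrps31 (-0.24, adjusted p = 0.921) and Mrps27 (-0.34, adjusted p = 0.999) had the smallest p-values, all lower in caPI3K MI hearts.

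The effect of the transgenes without infarction was read from the sham-operated hearts. Against Ntg, the median was -0.06 for dnPI3K and 0.01 for caPI3K, and 0 genes were called in either (1.12% and 0.257% of all tested genes), with 10 and 14 at an unadjusted p below 0.05 (10.8% and 11.2%). Neither median had a firm sign: that for dnPI3K turned to 0.019 once arrays 415 to 418 were dropped and was -0.015 when only dnPI3K sham replicate 2 was, and that for caPI3K was -0.028 to 0.022 with 1 array left out, lowest without Ntg sham replicate 4. Closest to a call were Mrps6 (-0.27, adjusted p = 0.0569), Mrpl44 (-0.19, adjusted p = 0.143) and Mrps10 (-0.19, adjusted p = 0.193) for dnPI3K, and Mrps34 (0.37, adjusted p = 0.0709), Mrpl23 (-0.33, adjusted p = 0.0822) and Mrpl28 (0.27, adjusted p = 0.127) for caPI3K. Without dnPI3K sham replicate 3 or 4, 1 gene was called for dnPI3K, and without Ntg sham replicate 4, 3 were called for caPI3K. Most caPI3K sham arrays carried Y-linked signal and no Ntg sham array did. Its part was not tested beyond a fit without the arrays that carry it, which leaves a lone caPI3K sham array and cannot settle it.

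Between the transgenes some of the genes differed in sham hearts. In caPI3K sham hearts 12 of the 76 genes were higher than in dnPI3K sham hearts and 4 were lower, where 5.38% and 4.5% of all tested genes were called, and the median was 0.04. The count of lower genes was thus near the share over all tested genes. Mrps34, a small-subunit protein whose loss in humans gives a mitochondrial disease, had 13.03, 13.21, 12.97 and 13.05 in caPI3K sham against 12.47, 12.31, 12.24 and 12.75 in dnPI3K sham hearts. The lines did not overlap, although dnPI3K sham replicate 4 was near, and the difference was 0.62 (SE 0.09, adjusted p = 3.07e-05). Mrps6 had 11.81, 11.88, 11.82 and 12.03 in caPI3K sham against 11.34, 11.32, 11.56 and 11.34 in dnPI3K sham hearts, a difference of 0.49 (SE 0.07, adjusted p = 2.75e-05). Mrpl44, which carries a fold related to RNase III and is a cardiomyopathy gene in humans, had 12.60, 12.50, 12.42 and 12.52 in caPI3K sham against 12.12, 12.02, 12.12 and 12.13 in dnPI3K sham hearts, a difference of 0.41 (SE 0.06, adjusted p = 4.09e-05).

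Mrps12 was higher by 0.47 (SE 0.09, adjusted p = 0.000587) and Mrpl28 by 0.40 (SE 0.07, adjusted p = 0.000606) in caPI3K sham than in dnPI3K sham hearts, and Mrpl19, Mrpl10, Mrps10, Mrpl45 and Mrps23 by 0.26 to 0.33. The opposite direction was taken by Mrpl23, with 12.21, 12.22, 12.22 and 12.40 in caPI3K sham against 12.79, 12.74, 12.71 and 12.64 in dnPI3K sham hearts, a difference of -0.46 (SE 0.08, adjusted p = 0.000462). Mrps15 (-0.36, adjusted p = 0.0111), Mrpl39 (-0.31, adjusted p = 0.026) and Mrpl13 (-0.25, adjusted p = 0.0388) were lower as well. Mrpl23, Mrpl39 and Mrps15 are also among the genes that fell after MI in dnPI3K hearts, a comparison that shares the dnPI3K sham arrays. Of the 16 genes, 8 were called between caPI3K and dnPI3K in infarcted hearts too. Those 2 comparisons share no arrays but take their spread from the same fit. The matching share over all tested genes is not given, so this overlap is a description only.

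**Figure D4:**
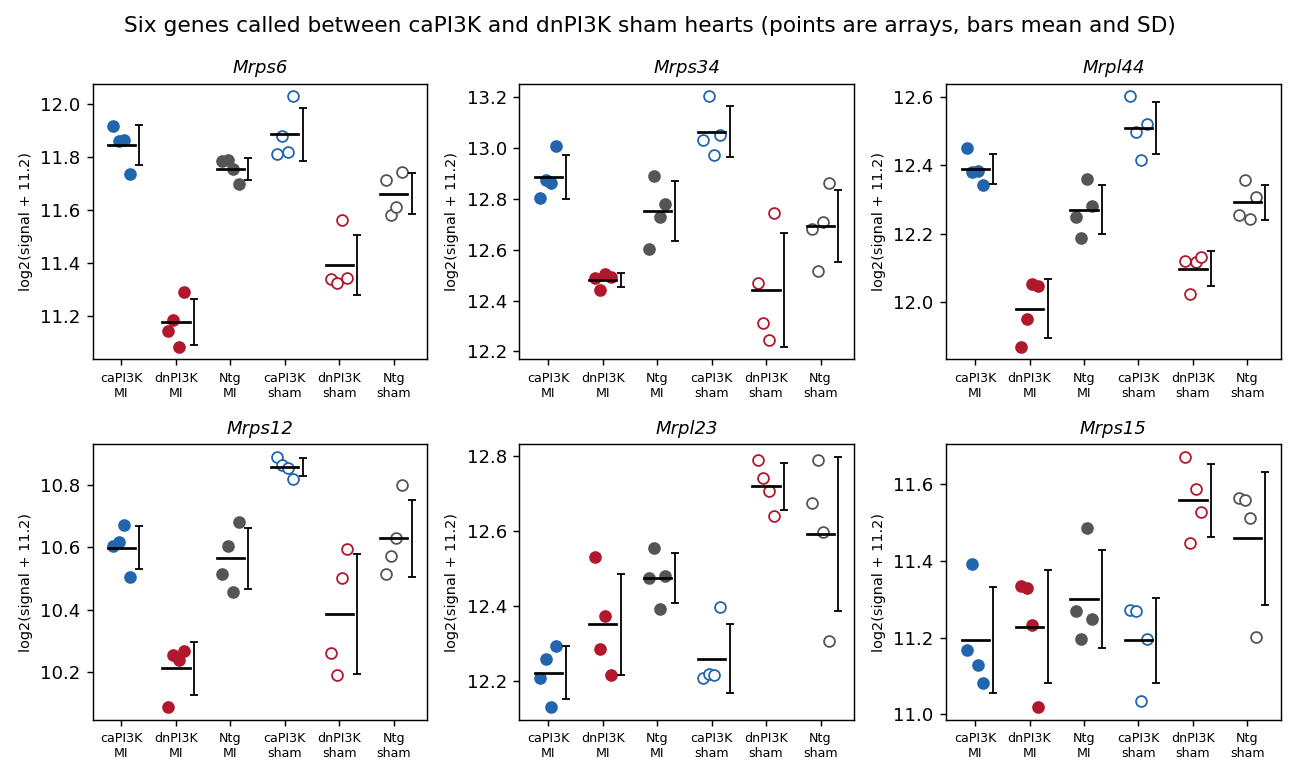
Log2 signal (y axis) on every array of the 6 groups (x axis) for 6 genes called between caPI3K sham and dnPI3K sham hearts; points are arrays (filled for MI, open for sham), bars the mean and whiskers 1 SD of 4 arrays. Mrps6, Mrps34, Mrpl44 and Mrps12 are higher and Mrpl23 and Mrps15 lower in caPI3K sham than in dnPI3K sham hearts.

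The number of these sham differences varied with the arrays used. Leaving out the sham arrays numbered 415 to 418 left 6 genes called and a median of 0.00. Leaving out the 3 caPI3K sham arrays with Y-linked signal left 3 called, but this sets 1 caPI3K sham array against 4 and assumes that it varies like the other groups. Without caPI3K sham replicate 2 there were 10, and single left-out arrays ended the call of Mrpl13, Mrpl39, Mrpl45, Mrps23, Mrps15 and Mrpl10 at least once. Mrps34, Mrps6 and Mrpl44 were called in all 17 settings, of which 1 is that with a lone caPI3K sham array. Cardiomyocyte markers were called in 0 of 14 cases, with sums of 601459 to 638623 in caPI3K sham and 610246 to 775900 in dnPI3K sham hearts, and 30 of 51 cytosolic ribosomal protein genes were lower in caPI3K sham hearts, at a median of -0.31. Adipocyte markers were lower in 2 of 4 cases, Adipoq and Car3, and their sums did not overlap, at 43136 to 45281 in caPI3K sham and 46737 to 56708 in dnPI3K sham hearts. Fibroblast markers were lower in 1 of 11, Tcf21, with sums of 65876 to 76011 in caPI3K sham and 74934 to 87669 in dnPI3K sham hearts, and endothelial markers in 1 of 7, Vwf. Macrophage and myeloid (0 of 11), smooth muscle and pericyte (0 of 7) and red cell markers (0 of 3) were not called, and the part of the markers in the result was not tested. Of the translation lists, again given only by called genes of smallest p and without counts, some genes were higher in caPI3K sham hearts. They were Polrmt (0.55, adjusted p = 0.000152), Gfm1 (0.42, adjusted p = 0.00143), Gfm2 (0.48, adjusted p = 0.00366) and the RNA methyltransferase Nsun4 (0.37, adjusted p = 0.0226). Among the regulators Ppargc1a was lower in caPI3K sham hearts (-1.12, adjusted p = 0.000304), Ppargc1b higher (0.34, adjusted p = 0.0324) and Yy1 lower (-0.26, adjusted p = 0.047).

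Across all 24 arrays most members varied together, as a description with groups and scaling shared among the points. The median correlation over the 2850 pairs of genes was 0.43. Mrpl22 followed the median of the other members most closely (r = 0.92), then Mrps25 and Mrps16 (r = 0.88 each). Mrpl20 (r = -0.12), Mrpl52 (r = -0.02) and Mrpl54 (r = 0.18) followed it least. Mrpl20 had 11.47, 11.41, 11.74 and 11.40 in dnPI3K MI against 11.19, 11.28, 11.39 and 11.57 in dnPI3K sham hearts; only sham replicate 4 reached into the MI arrays, and the change of 0.15 did not pass the test. Mrps21 spread most among the arrays of a group: it ranged over 11.1 to 12.5 in dnPI3K MI, 11.5 to 12.7 in dnPI3K sham, 11.4 to 12.5 in Ntg MI and 11.2 to 12.9 in Ntg sham hearts, but over 12.3 to 12.4 in both caPI3K groups.

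**Figure D5:**
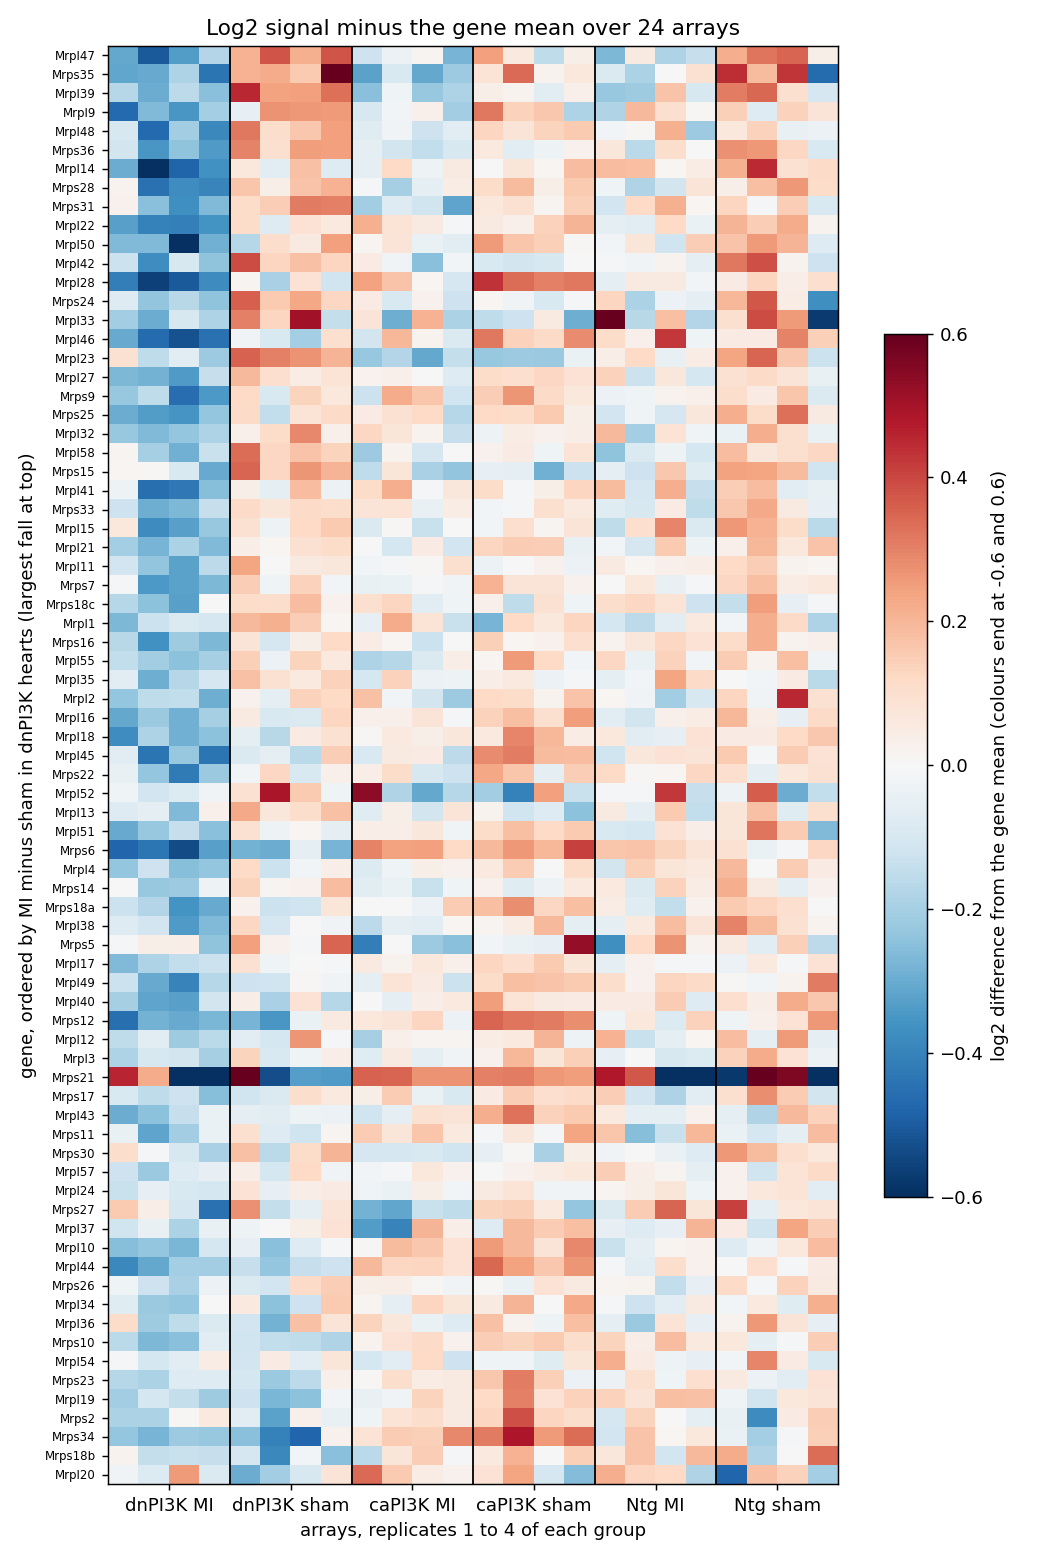
Log2 signal minus each gene's mean over 24 arrays (colour, ending at -0.6 and 0.6) for the 76 genes (rows, ordered by the change after MI in dnPI3K hearts) on the 4 arrays of each of 6 groups (columns). The dnPI3K MI columns are blue over most rows, whereas Mrps21 runs between both ends of the scale within the dnPI3K and Ntg groups.

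Promoters of the family were read from RefSeq (build GRCm38.p6), which held 67 of the 76 genes with the 250 bases before and 50 after each start. NRF1 and the ETS factor GABP are known to drive nuclear genes for mitochondria. The letters of an NRF1 element, which read the same on both strands and are the capitals in the sequences of Mrpl9 and Mrpl32 given here, were present in 3 of 67 promoters (4.48%), against 2.01% of 11820 tested genes in the table. The ETS letters CCGGAAGT, on either strand, were present in 12 (17.9%), against 7.58%, and those of YY1, AAGATGGC, also in 12 (17.9%), against 4.53%. No member held both the NRF1 and the ETS letters. An SP1 box, GGGGCGGG, was in 29.9% against 32.1%, an E-box, CACGTG, in 7.46% against 10.8%, and the estrogen-related receptor element TCAAGGTCA in 0 against 0.355%. All 3 genes with NRF1 letters were among the 32 called lower after MI in dnPI3K hearts that the table holds, whereas ETS letters were in 4 of these 32 and in 8 of the 35 others. A match of letters is a description and not a site.

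The 120 bases before the start are shown for a pair of genes with the NRF1 letters that fell after MI in dnPI3K hearts and a pair with the ETS letters, both disease genes in humans, that did not pass the test. Each is given 5′ to 3′ on the strand of the gene, with the match in capitals: Mrpl9 at chr3:94443216-94443335 (+), Mrpl32 at chr13:14613038-14613157 (-), Mrpl3 at chr9:105053148-105053267 (+) and Mrps22 at chr9:98601680-98601799 (-).
Mrpl9: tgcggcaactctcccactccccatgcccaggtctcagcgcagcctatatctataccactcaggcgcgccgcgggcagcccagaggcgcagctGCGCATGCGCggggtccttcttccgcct
Mrpl32: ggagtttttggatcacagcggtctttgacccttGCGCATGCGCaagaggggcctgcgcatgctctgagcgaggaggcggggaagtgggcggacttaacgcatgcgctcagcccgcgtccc
Mrpl3: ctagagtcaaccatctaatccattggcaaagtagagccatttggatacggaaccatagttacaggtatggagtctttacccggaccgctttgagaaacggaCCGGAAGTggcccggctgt
Mrps22: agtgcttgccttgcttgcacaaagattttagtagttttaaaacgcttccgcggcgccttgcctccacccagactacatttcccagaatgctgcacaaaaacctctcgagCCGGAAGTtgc

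The NRF1 letters began 28 bases before the start of Mrpl9, which changed by -0.50 in dnPI3K hearts, and 87 bases before that of Mrpl32, which changed by -0.34 (adjusted p = 0.00697). The ETS letters began 19 bases before the start of Mrpl3 and 11 before that of Mrps22, whose changes were -0.16 and -0.24.

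Many members share their upstream region with a gene read the other way. Of the 67 genes 25 (37.3%) had such a partner starting within 1000 bases, against 17.6% of tested genes in the table. Of the partners 22 were measured, at a median change of -0.11 after MI in dnPI3K hearts. The members facing them had a median of -0.24. Of these partners 3 were called lower and 0 higher: Ndufb5, Fau and Mrpl46, itself a member. Mrpl46 and Mrps11 face each other and are counted on both sides. Over all tested genes 5.19% were called lower. Mrpl46 and Mrps11 start 42 bases apart and differ in call: Mrpl46 changed by -0.38 (adjusted p = 0.0111) and Mrps11 by -0.13 (adjusted p = 0.488). Mrpl47 faces Ndufb5, a complex I gene, over 308 bases, and both fell, Ndufb5 by 0.31 (adjusted p = 0.0146). Mrpl49, with a change of -0.19 and no call, faces Fau, which encodes a cytosolic ribosomal protein and fell by 0.28 (adjusted p = 0.0119).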

How the data were processed

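Hearts were measured on Affymetrix mouse arrays. The deposited values are signal intensities, which the submitters' processing notes attribute to MAS5; no version was stated. The authors' deposited intensities had a mean of 500 on every array after trimming 2 percent at each end, so they were taken as already scaled. Of 45101 probe sets 34945 name 1 gene in the platform annotation. Probe sets had to exceed the 40th percentile of their array on 4 or more arrays, and each gene was represented by its brightest, which left 14763 genes.

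The log2 values were fitted in limma 3.58.1 (R 4.3.3) with 6 group means and an intensity trend, and p-values were adjusted by Benjamini-Hochberg over all tested genes. SE is the model's standard error. Code was tested on simulated data. The number of arrays limits the precision. The members and gene lists were chosen with earlier results of these data known. No set test was run on any list. Translation lists are given by counts and called genes after MI in dnPI3K hearts, and elsewhere only by called genes of smallest p. Genes were named by size among called members (up to 10 in each direction, or the 3 of smallest p where none was called), by a known role, by likeness to the family, and in pathway lists by smallest p; Mrpl11, Mrpl46 with Mrps11, Mrps21, the promoter examples and facing genes were chosen after their values were seen. Alternatives were quantile normalization, other pseudocounts, no filter, the mean of probe sets, only the groups compared, array numbers, Y-linked arrays and leaving out each array. Figures were drawn with matplotlib 3.10.9 (Python 3.11.15).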

Additional observations from a re-analysis of the deposited data

Results flagged for a closer look

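In 252 groups of 4 arrays checked, those of 41 named genes and of the family's median, 18 held 1 array far from the other 3 by Dixon's criterion; chance marks about 1 group in 20. The family's median was -0.057 on dnPI3K sham replicate 2, below the other 3 at 0.070 to 0.088, and on that array Mrpl44 (12.02) and Mrps25 (11.10) were low too. In the same group Mrpl9 was low on replicate 1 (11.04), Mrps35 high on replicate 4 (11.93) and Mrps6 high on replicate 3 (11.56). In dnPI3K MI hearts Mrps28 was high (11.81) and Mrps12 low (10.09) on replicate 1, and Mrpl50 was low (10.65) on replicate 3. In caPI3K MI hearts Mrpl52 was high (12.45) and Mrpl12 low (12.52) on replicate 1. In caPI3K sham hearts Mrpl23 (12.40) and Mrps5 (9.71) were high on replicate 4, and Mrpl39 was low on replicate 3 (14.04). In Ntg MI hearts Mrpl22 was high on replicate 3 (11.95) and Mrpl45 low on replicate 1 (10.48). In Ntg sham hearts replicate 4 was high for Mrpl49 (10.86) and low for Mrps15 (11.20).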

How the results depend on the processing

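After MI in dnPI3K hearts the count of genes that fell was 31 after quantile normalization, 37 with a term for array numbers and 22, at a median of -0.19, with the mean of probe sets, which also turned Mrps31 to 0.049; without the sham arrays numbered 415 to 418 it was 25. Across the 7 settings that left out no array of the groups compared 15 genes stayed called. With only the groups compared in the fit, which estimates the spread from fewer arrays, 1 gene was called after MI in caPI3K hearts, 6 for dnPI3K against Ntg MI and 14 for caPI3K against dnPI3K MI. With the mean of probe sets the median difference of MI effects, caPI3K minus dnPI3K, was 0.089. Without the sham arrays numbered 415 to 418 the median for dnPI3K minus Ntg was -0.22, that of dnPI3K against Ntg sham 0.019 and that of caPI3K against dnPI3K sham -0.0025, with 6 called; without the caPI3K sham arrays of Y-linked signal 3 were called, with 1 caPI3K sham array left that is assumed to vary like the other groups. Quantile normalization gave 1 call in each transgenic sham group against Ntg. The cause of these shifts was not tested.

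Leaving out 1 array at a time gave 27 to 37 called after MI in dnPI3K, 0 to 3 in Ntg and 0 in caPI3K hearts. It gave 10 to 19 for dnPI3K against Ntg MI, 13 to 23 for caPI3K against dnPI3K MI, 0 to 1 for dnPI3K and 0 to 3 for caPI3K against Ntg sham (median for dnPI3K -0.061 to -0.015), and 10 to 14 for caPI3K against dnPI3K sham. No paired analysis was possible because no number in the sample titles occurs in more than 1 group. With 4 arrays a group, a small change of a single gene can go unseen.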

Other observations

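Mrpl30 and Mrpl53 were seen only through probe sets that name another gene as well and are not counted above. The probe set shared by Mrpl30 and Gm6238 averaged 13.97 in dnPI3K MI and 14.36 in dnPI3K sham hearts, 14.05 in caPI3K MI and 14.04 in caPI3K sham hearts, and 14.11 in Ntg MI and 14.24 in Ntg sham hearts. That shared by Mrpl53 and Ccdc142 averaged 12.34 in dnPI3K MI and 12.51 in dnPI3K sham hearts, 12.51 in caPI3K MI and 12.59 in caPI3K sham hearts, and 12.56 in Ntg MI and 12.63 in Ntg sham hearts. A probe set naming both Nme3 and Mrps34 averaged 9.75 in dnPI3K MI and 9.73 in dnPI3K sham hearts, 10.24 in caPI3K MI and 10.17 in caPI3K sham hearts, and 10.15 in Ntg MI and 10.24 in Ntg sham hearts. These values were not tested.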
